A study of Mus musculus with 17 samples.

Results

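The troponins and tropomyosins are the regulatory proteins of the thin filament, and 10 of their genes were followed here through a transcription block in adult mouse cardiomyocytes. The members were taken by symbol, through their Ensembl identifiers, from a listed set: the troponin T genes Tnnt1, Tnnt2 and Tnnt3, the troponin I genes Tnni1 and Tnni3, the troponin C gene Tnnc1 and the tropomyosin genes Tpm1, Tpm2, Tpm3 and Tpm4. All 10 were among the 55486 genes of the count table, and 9 of them were among the 13229 genes with enough reads to be tested; Tnni1 was not. Ventricular myocytes came from mice at postnatal day 60 labelled as MBNL1 loss-of-function (KO) or as wild type (WT), MBNL1 being a muscleblind protein, which binds RNA. The cells of all groups were released from the perfused heart with Liberase, left for 3 h on laminin and then kept in medium with actinomycin D, an inhibitor of transcription, at 2 µg/mL. RNA was taken before treatment (0 h) and after 4 and 8 h, to ask which transcripts differ in stability between the genotypes. Each group had 3 libraries except WT at 4 h with 2, giving 17 libraries in all over both genotypes and 3 times. No library was made from cells kept for 4 or 8 h without actinomycin D. The labels give neither the allele nor the promoter of the KO, and they do not say that replicates were separate animals, so p-values measure the spread between these samples, which may be technical.

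Contraction is switched on when calcium binds troponin C, which draws the inhibitory subunit troponin I away from actin, while troponin T ties the complex to tropomyosin, the coiled coil that lies along the filament and covers its myosin-binding sites. Each subunit has paralogues with a characteristic muscle: Tnnt2, Tnni3 and Tnnc1 serve the adult ventricle (Tnnc1 also slow skeletal muscle), Tnnt1 and Tnni1 slow skeletal muscle, and Tnnt3 fast skeletal muscle. The heart replaces Tnni1 by Tnni3 around birth, and MBNL proteins are known for their part in the fetal-to-adult splicing of troponin T. Reads here were counted per gene, so nothing below bears on splice forms.

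Library totals ran from 17058419 to 17968827 counts, of which mitochondrially encoded genes held 35.1 to 43.3% and the 10 members 1.25 to 2.26%. The targeted gene did not mark the KO libraries by a lower count. Mbnl1 stood at 93.8 to 104 CPM (read counts relative to the library total, scaled by TMM) in the 3 KO libraries at 0 h and at 86.2 to 88.8 CPM in the 3 WT libraries, a log2 difference of 0.19 (edgeR quasi-likelihood test, adjusted p = 0.000811). A count per gene does not show a partial deletion. Esr1, the gene of oestrogen receptor alpha, was at 2354 to 2593 CPM in KO and at most 0.162 CPM in WT at 0 h. Over all times KO was at no less than 2252 CPM (at 4 h) and WT at no more than 3.34 CPM (at 8 h). The 2 sets of libraries were thus distinct, and KO below means the libraries labelled KO. The cardiomyocyte markers summed to 57670 ± 1971 CPM in KO and 50331 ± 1121 CPM in WT at 0 h (SD, n = 3 each), and all 12 of them averaged above 1 CPM.

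At baseline the WT cells held the members in 2 tiers. Per length of the principal coding transcript, Tpm1 stood at 2773 ± 85.1 RPKM (CPM divided by the length in kilobases; SD, n = 3), Tnnt2 at 2589 ± 142, Tnni3 at 2452 ± 19.4 and Tnnc1 at 1563 ± 57.3. The range of Tpm1 over libraries overlapped that of Tnnt2, and that of Tnnt2 overlapped that of Tnni3. Tnnt1 followed at 10.8 ± 0.775 RPKM, then Tpm4 at 6.83 ± 0.868, Tpm3 at 4.67 ± 0.378 and Tpm2 at 1.46 ± 0.259, with no overlap between neighbours. Tnnt3 at 0.196 ± 0.120 and Tnni1 at 0.121 ± 0.101 RPKM closed the order and overlapped each other. With the length of all merged exons instead, the 4 abundant genes took another order, Tnni3 at 1084 and Tnnc1 at 1082 RPKM lying above Tpm1 at 812 and Tnnt2 at 401, and Tpm4 at 6.60 RPKM lay above Tnnt1 at 5.04, the reverse of their order above. The merged exons of Tnnt2 span 7752 bases and its longest transcript 3330.

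**Figure D1:**
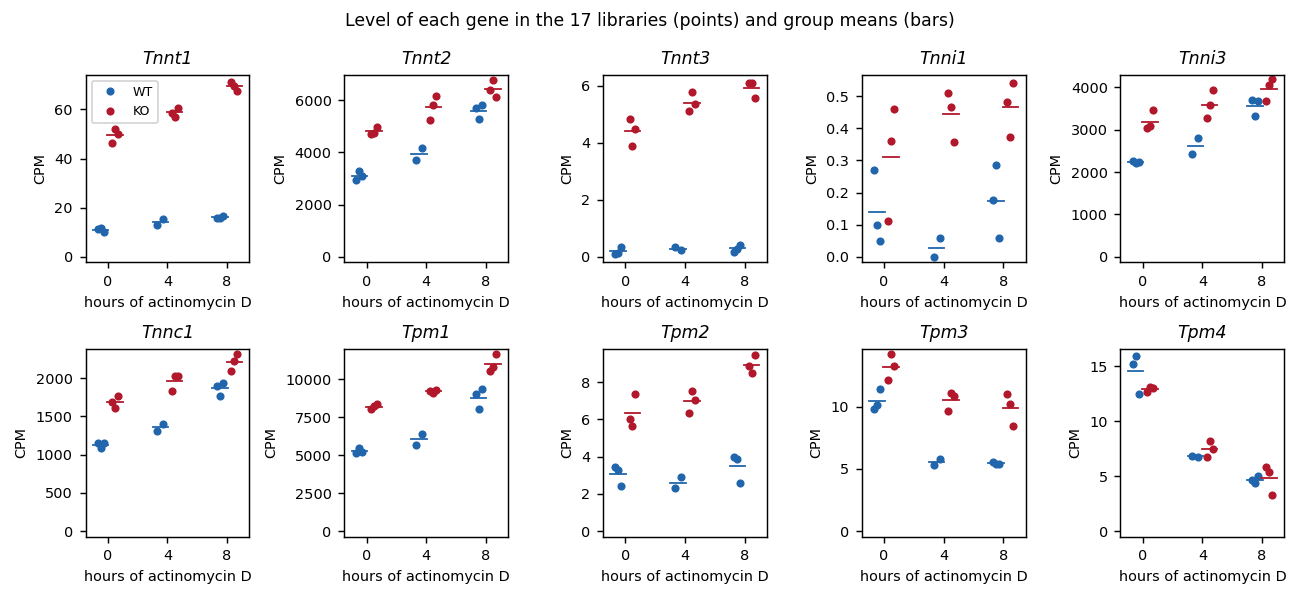
TMM-scaled CPM (vertical axes, linear, a different scale in each panel) of the 10 genes against hours of actinomycin D; points are libraries, short bars group means, blue WT and red KO. Tnnt1, Tnnt3 and Tpm2 of KO lay above WT at each time, while Tpm4 of KO and WT overlapped at each time.

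MBNL proteins bind RNA at short motifs, here taken as GC with C or T before it and C or T after it, TGCT being an example, and counted on the transcribed strand with overlaps allowed, and binding in the 3′ UTR is known to bear on transcript turnover. Each line gives the 30-base window with the most such motifs in the annotated 3′ UTR of a member, on the genome build GRCm38, with the motifs in capitals. They are shown because these are among the genes whose level, or course during the block, differed between KO and WT in the tests described further on.
Tnnt1, chr7:4504725-4504754, minus strand: gacTGCCaggacatgaccTGCTgtgtggag
Tnnt3, chr7:142515935-142515964, plus strand: ggaactcaggacccacccTGCTgcaaTGCC
Tnnc1, chr14:31211538-31211567, plus strand: aTGCTggtcttgcacggtTGCCtgCGCCtg
Tpm1, chr9:67023125-67023154, minus strand: ttatttaaatgTGCCatttcccaggtTGCC
Tpm3, chr3:90100341-90100370, plus strand: cctaacTGCTcaaagatggatcaTGCCGCC
The whole 3′ UTRs held 2.70 motifs per 100 bases in Tnnt1, 2.60 in Tnnc1 and 2.25 in Tnnt3, against a median of 1.26 over 11737 tested genes with a 3′ UTR of at least 50 bases (10th to 90th percentile 0.66 to 2.08). As many per base were found in 3.37% of these genes for Tnnt1, 3.95% for Tnnc1 and 7.40% for Tnnt3. The tropomyosins lay within that range, with 1.63 in Tpm3, 1.56 in Tpm1, 1.29 in Tpm4 and 1.16 in Tpm2, as did Tnni3 with 1.59. The 3′ UTRs of Tnnt1, Tnnc1 and Tnnt3 are short, at 178 to 192 bases, where 4 to 5 motifs set the density. That of Tnni3 is shorter still, at 63 bases, where 1 motif sets it. The median length was 1089 bases. A match to these letters is a description and not a binding site.

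Among the 9 tested members the largest log2 differences between the genotypes were those of Tnnt3 and Tnnt1, the skeletal muscle paralogues of troponin T. Tnnt3 passed the filter on low counts only through KO, so its difference had to appear. Tnni2, the fast skeletal troponin I, is not a member and was singled out after its values were seen. Its log2 differences, KO minus WT, were 2.13, 2.40 and 1.90 at 0, 4 and 8 h. Tnnt1 (chromosome 7, 4504570 to 4516382, minus strand), the slow skeletal troponin T, was at 46.5, 52.1 and 49.8 CPM in KO and at 11.4, 11.7 and 10.2 CPM in WT at 0 h. At 4 h it was at 58.7, 57.0 and 60.7 CPM in KO and at 12.9 and 15.3 CPM in WT. At 8 h it was at 71.1, 69.7 and 67.5 CPM in KO and at 15.9, 15.7 and 16.7 CPM in WT. The lowest KO library lay well above the highest WT library at each time. The log2 differences, KO minus WT, were 2.16 (SE 0.07), 2.06 (SE 0.08) and 2.11 (SE 0.07) at 0, 4 and 8 h, a 4.46-fold, 4.17-fold and 4.31-fold higher level, and the baseline difference ranked 95 in size among the 13229 genes tested (edgeR quasi-likelihood test, adjusted p = 5.8e-36, 5.45e-32 and 1.33e-36).

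Tnnt3 (chromosome 7, 142498836 to 142516009, plus strand), the fast skeletal troponin T, was nearly unread in WT. It had 86, 65 and 78 reads in the KO libraries at 0 h and 2, 3 and 7 in WT; at 4 h it had 90, 99 and 90 against 6 and 4, and at 8 h 101, 98 and 93 against 3, 5 and 7. No WT library came near a KO library. The ratio of summed reads, scaled by the TMM-adjusted library size, was 21.95 at 0 h (exact 95% Poisson interval 12.3 to 43.1, counting error only). It was 18.9 at 4 h (10.1 to 39.9) and 20.3 at 8 h (12.1 to 36.8). The fitted log2 differences were 4.41 (SE 0.28), 4.21 (SE 0.30) and 4.31 (SE 0.25), with adjusted p = 2.42e-21, 9.81e-19 and 1.22e-22. This gene passed the filter on low counts only through its KO libraries, so that a difference had to appear.

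Tnnt2 (chromosome 1, 135836354 to 135852260, plus strand), the cardiac troponin T, was at 4711, 4749 and 4964 CPM in KO and at 2953, 3290 and 3078 CPM in WT at 0 h. At 4 h it was at 5254, 5811 and 6150 CPM against 3701 and 4170, and at 8 h at 6385, 6787 and 6101 CPM against 5683, 5272 and 5816. The groups did not overlap at any time, and lay closest at 8 h. The log2 difference was 0.63 (SE 0.05) at 0 h, 0.54 (SE 0.06) at 4 h and 0.20 (SE 0.05) at 8 h (adjusted p = 2.41e-12, 2.67e-09 and 0.00346). The 8 h call was lost with library size alone (0.10, adjusted p = 0.171), when libraries were scaled by their ribosomal protein reads (0.15, adjusted p = 0.0806) and with no filter on low counts (0.22, adjusted p = 0.0614).

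Since the paralogues are read in the same library, their ratio does not depend on scaling. The log2 ratio of Tnnt1 to Tnnt2 reads averaged -6.60 in KO and -8.13 in WT at 0 h, so Tnnt1 was 2.88-fold higher relative to Tnnt2 in KO. The same fold was 2.87 at 4 h and 3.75 at 8 h, and KO and WT libraries did not overlap at any time. Skeletal paralogues remained a small part of troponin T RNA. Tnnt1 and Tnnt3 together made up 1.11 ± 0.0497% of troponin T reads in KO and 0.363 ± 0.0243% in WT at 0 h (SD, n = 3 each). Per merged exon length the shares were 3.91% and 1.27%, and per principal transcript length 1.30% and 0.424%. The share moves with the length used. The 3-fold contrast between genotypes had to be much the same with each, because a gene has 1 length in both genotypes.

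**Figure D2:**
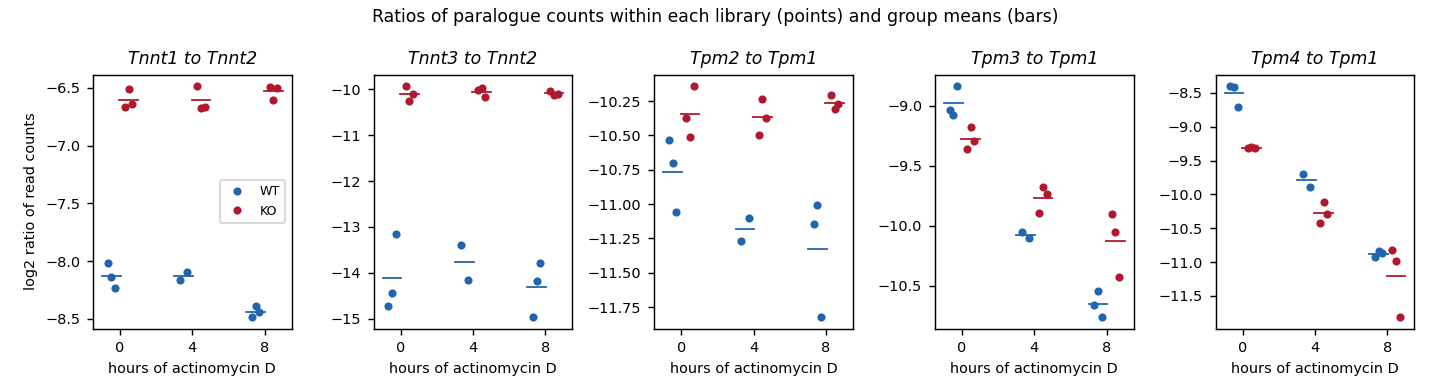
Log2 ratio of read counts of 2 paralogues within each library (vertical axes) against hours of actinomycin D; points are libraries, short bars group means. The Tnnt1 to Tnnt2 and Tnnt3 to Tnnt2 ratios of KO lay above those of WT at each time, and the Tpm3 to Tpm1 ratio of KO lay below WT at 0 h and above it at 4 and 8 h.

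Of the inhibitory subunits, the adult cardiac Tnni3 (chromosome 7, 4518305 to 4524229, minus strand) was at 3032, 3086 and 3457 CPM in KO and at 2253, 2218 and 2239 CPM in WT at 0 h. At 8 h it was at 3668, 4042 and 4201 CPM in KO and at 3706, 3312 and 3680 CPM in WT. KO lay above WT at 0 h, and the groups overlapped at 8 h. The log2 difference was 0.51 (SE 0.08) at 0 h and 0.46 (SE 0.09) at 4 h (adjusted p = 9.65e-05 and 0.000909), and at 8 h it was 0.15 (SE 0.08, adjusted p = 0.16). The 8 h difference passed with the replicate block (adjusted p = 0.0155), in a fit of the compared groups only (0.0114) and without replicate 1 of KO at 8 h (0.21, adjusted p = 0.0318), and the 4 h difference missed the threshold under ribosomal protein scaling (0.10, adjusted p = 0.218). Exons of Tnni3 overlap those of Dnaaf3 on the same strand, so reads of the 2 genes may not be fully separated.

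Tnni1 (chromosome 1, 135779434 to 135810989, plus strand), the slow skeletal and fetal cardiac troponin I, had 0 to 9 reads per library and could not be tested. Its reads were 2, 6 and 8 in KO and 5, 2 and 1 in WT at 0 h, 9, 8 and 6 against 0 and 1 at 4 h, and 8, 6 and 9 against 3, 5 and 1 at 8 h. The ratio of summed reads, KO to WT, scaled by the TMM-adjusted library size, was 2.30 at 0 h with an interval that included equality (0.929 to 6.21). It was 15.6 at 4 h (2.53 to 642) and 2.67 at 8 h (1.19 to 6.55). These intervals are for counting error only. The fetal troponin I therefore stayed near the limit of detection in both genotypes.

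Tnnc1 (chromosome 14, 31208312 to 31211729, plus strand), the calcium sensor of cardiac and slow muscle, was at 1692, 1607 and 1769 CPM in KO and at 1146, 1079 and 1155 CPM in WT at 0 h. At 8 h it was at 2089, 2222 and 2320 CPM against 1891, 1770 and 1940. The groups did not overlap at either time. The log2 difference was 0.58 (SE 0.05) at 0 h, 0.54 (SE 0.05) at 4 h and 0.24 (SE 0.04) at 8 h (adjusted p = 1.39e-16, 4.91e-13 and 1.86e-05). The fast skeletal troponin C, Tnnc2, had 1 read in all 17 libraries.

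Among the tropomyosins, Tpm1 (chromosome 9, 67022590 to 67049406, minus strand) is the main striated muscle form of the rodent heart. It was at 8002, 8244 and 8331 CPM in KO and at 5135, 5445 and 5210 CPM in WT at 0 h, and at 10502, 10797 and 11662 CPM against 8993, 8014 and 9328 at 8 h. KO stayed above WT with no overlap. The log2 difference was 0.64 (SE 0.05), 0.61 (SE 0.05) and 0.32 (SE 0.05) at 0, 4 and 8 h (adjusted p = 2.55e-17, 3.36e-14 and 1.34e-07).

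Tpm2 (chromosome 4, 43514711 to 43523765, minus strand), the beta-tropomyosin of skeletal muscle, was at 6.02, 5.63 and 7.38 CPM in KO and at 3.46, 3.27 and 2.44 CPM in WT at 0 h. At 4 h it was at 6.36, 7.54 and 7.02 CPM against 2.30 and 2.91, and at 8 h at 8.88, 8.51 and 9.43 CPM against 3.96, 3.89 and 2.58. Each KO library was above each WT library of its time. The log2 difference was 1.06 (SE 0.15), 1.42 (SE 0.18) and 1.36 (SE 0.14), which is 2.09-fold, 2.67-fold and 2.57-fold (adjusted p = 1.92e-08, 1.2e-09 and 3.19e-12). Relative to Tpm1 in the same library it was 1.34-fold, 1.76-fold and 2.09-fold higher in KO at 0, 4 and 8 h.

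Tpm3 (chromosome 3, 90072649 to 90100902, plus strand) yields slow muscle and cytoplasmic tropomyosins. It was at 12.2, 14.2 and 13.3 CPM in KO and at 9.80, 10.1 and 11.4 CPM in WT at 0 h, at 9.65, 11.1 and 10.9 CPM against 5.34 and 5.83 at 4 h, and at 10.99, 10.2 and 8.47 CPM against 5.56, 5.37 and 5.39 at 8 h. The groups lay close at baseline and apart later. The log2 difference was 0.34 (SE 0.09) at 0 h (adjusted p = 0.00288), 0.92 (SE 0.13) at 4 h and 0.86 (SE 0.11) at 8 h (adjusted p = 2.09e-08 and 8.57e-09). The baseline call was lost under library size alone (0.13, adjusted p = 0.282) and under ribosomal protein scaling (0.01, adjusted p = 0.961).

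Tpm4 (chromosome 8, 72134975 to 72153142, plus strand), a cytoplasmic tropomyosin, was the 1 tested member whose groups overlapped at every time. It was at 12.6, 13.1 and 13.03 CPM in KO and at 15.2, 15.9 and 12.4 CPM in WT at 0 h, and at 5.80, 5.34 and 3.24 CPM against 4.62, 4.40 and 4.98 at 8 h. The log2 differences were -0.17 (SE 0.10), 0.13 (SE 0.14) and 0.04 (SE 0.15) at 0, 4 and 8 h (adjusted p = 0.187, 0.527 and 0.881). The baseline difference was called under library size alone (-0.37, adjusted p = 0.00119) and under ribosomal protein scaling (-0.50, adjusted p = 6.57e-05). Relative to Tpm1 in the same library Tpm4 was 0.574-fold as high in KO as in WT at 0 h, with no overlap. Tpm4 exons overlap an antisense gene, Gm26586; whether counting used strand is unknown here, so reads of the pair may be mixed.

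Markers of other cells moved with genotype too. At 0 h the 15 fibroblast markers summed to 61.6 to 65.6 CPM in KO and 101 to 106 CPM in WT, the 15 leukocyte markers to 37.4 to 42.4 against 90.7 to 105, and the 15 endothelial markers to 294 to 341 against 385 to 415. None of these 45 genes was at 0 in all libraries, but 5 fibroblast and 4 leukocyte markers averaged below 1 CPM. Smooth muscle and pericyte markers, most of whose reads are of Des, which myocytes also express, summed to 2028 to 2141 CPM in KO and 1908 to 1931 CPM in WT. The 6 atrial myocyte markers, led by Nppa, summed to 101 to 110 CPM in KO and 74.1 to 76.0 CPM in WT. Of these 6, 4 were called lower (17.9% of all genes) and 1, Nppa, higher (18.8%), with a median log2 fold change of -1.10. Beside the same shares, 10 of 14 tested fibroblast markers and 13 of 14 tested leukocyte markers were lower and 0 higher. Of 15 endothelial markers 10 were lower and 2 higher. Of 14 tested smooth muscle and pericyte markers 1 was lower and 4 were higher. Tpm2, Tpm3 and Tpm4 are also expressed in such cells. Their part in the tropomyosin results was not tested, and in bulk RNA fewer cells of a type and less RNA per cell cannot be told apart.

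Counting over the family, 8 of the 9 tested members were higher in KO and none lower at 0 h, where 18.8% of all tested genes were called higher and 17.9% lower. Likewise 8 were higher and none lower at 4 h (14.6% of all genes higher, 17.3% lower), and 7 were higher and none lower at 8 h (13.9% higher, 13.7% lower). The median log2 difference of the 9 members was 0.63, 0.61 and 0.32 at 0, 4 and 8 h, against -0.02, -0.04 and -0.02 over all tested genes. These counts include Tnnt3, whose passage through the filter required a difference. Groups did not overlap for 8, 8 and 7 of the 9 members, as for 45.8, 53.4 and 38.8% of all genes. Scaling bears on the general direction: at 0 h the 2485 genes called higher and 2365 called lower became 909 and 5557 when library size alone was used, and 474 and 7644 under ribosomal protein scaling, and the median over all genes shifted by -0.21 and -0.33. Members higher at 0 h were then 7, with Tpm3 no longer called and Tpm4 called lower, under either scaling. In Tnnt1, Tnnt2, Tnnt3, Tnni3, Tnnc1, Tpm1, Tpm2 and Tpm3 the difference kept its direction at each time under all scalings tried.

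**Figure D3:**
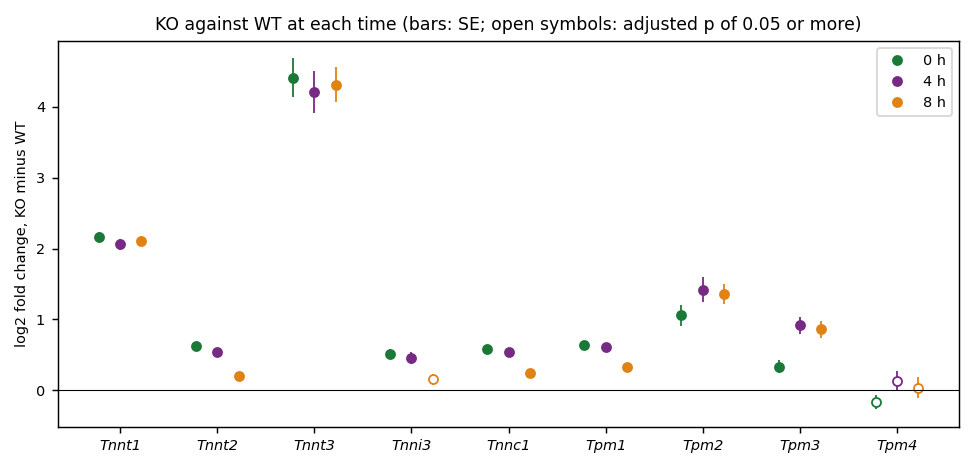
Log2 fold change, KO minus WT, of the 9 tested genes (vertical axis) at 0, 4 and 8 h, with SE bars; open symbols have an adjusted p of 0.05 or more. Tnnt1 stayed between 2.06 and 2.16, while the abundant Tnnt2, Tnni3, Tnnc1 and Tpm1 were nearer to 0 at 8 h than at 0 h; the sign of Tpm4 at 4 and 8 h flips under other scalings.

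During the block the values are shares of what RNA remained, so higher and lower refer to that share and not to the amount of RNA per cell. In WT, 5 members had a higher share at 8 h than at 0 h (25.0% of all genes did) and 2 had a lower one (26.8%). Those higher were the 4 adult cardiac genes and Tnnt1. Tnnt2 reached 180% of its baseline CPM, Tpm1 167%, Tnnc1 166%, Tnni3 159% and Tnnt1 145%. Tnnt2 had the largest log2 change of these, 0.85 (SE 0.05), and Tnnt1 the smallest, 0.54 (SE 0.08, adjusted p = 3.58e-16 and 2.53e-08). Under ribosomal protein scaling, which lowered the median of all genes by 0.67, Tnnt2 alone of the 5 stayed called and Tnnt1 turned to -0.13 (adjusted p = 0.193).

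Tpm3 and Tpm4 took the other course. Tpm4 fell to 46.7% of baseline in WT at 4 h and 32.1% at 8 h, and Tpm3 to 53.5% and 52.2%. The log2 changes at 8 h were -1.64 (SE 0.12) for Tpm4 and -0.94 (SE 0.11) for Tpm3 (adjusted p = 6.32e-18 and 6.36e-11), with the same direction under each scaling. The level of Tpm3 was close at 4 and 8 h and that of Tpm4 lower at 8 h, a step that was not tested on its own. Tpm2 did not pass in WT (0.19, SE 0.17, adjusted p = 0.34), with -0.02 under library size alone and a call of -0.48 (adjusted p = 0.00799) under ribosomal protein scaling, nor did Tnnt3 with its 12 and 15 reads (0.52, SE 0.52, adjusted p = 0.431). Endothelial marker sums in WT went from 385 to 415 CPM at 0 h to 89.7 to 96.9 CPM at 8 h, and leukocyte sums from 90.7 to 105 CPM to 17.4 to 21.2 CPM; their part in the fall of Tpm3 and Tpm4 was not tested.

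At 4 h in WT, Tnnt1, Tnnt2, Tnnc1 and Tpm1 were called higher (15.9% of all genes) and Tpm3 and Tpm4 lower (12.6%). The rises were small, between 0.20 and 0.35 on the log2 scale, and rested on 2 libraries. Without replicate 2 of WT at 4 h, Tnnt1 was at 0.19 (adjusted p = 0.243) and Tpm1 at 0.08 (adjusted p = 0.442), leaving 2 members higher. Under ribosomal protein scaling none of the 4 was called.

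In KO, 7 members had a higher share at 8 h (21.4% of all genes did) and 2 a lower one (23.2%), which accounts for all 9. Tnnt1 reached 140% of its baseline, Tpm2 141%, Tnnt3 134%, Tnnt2 134%, Tpm1 134%, Tnnc1 131% and Tnni3 124%. Log2 changes ran from 0.31 (SE 0.08, adjusted p = 0.00393) for Tnni3 to 0.49 (SE 0.13, adjusted p = 0.000839) for Tpm2. Tnnt3 was at 0.42 (SE 0.14, adjusted p = 0.013) and lost its call without replicate 2 of KO at 0 h (0.34, adjusted p = 0.0799), with library size alone (0.31, adjusted p = 0.0819) and with the deposited ratios (0.23, adjusted p = 0.666). Under ribosomal protein scaling none of the 7 was called, and Tnni3 and Tnnc1 turned to -0.07 and -0.003 (adjusted p = 0.293 and 0.97). The deposited ratios, tested with limma, called 1 of the 7 higher. Tnnt2, Tnni3, Tnnc1, Tpm1 and Tpm2 also missed the threshold there (adjusted p = 0.0542 to 0.141). Tpm4 fell to 37.1% and Tpm3 to 74.8% (log2 -1.43, SE 0.12, and -0.42, SE 0.10; adjusted p = 1.14e-14 and 0.000304). At 4 h in KO, Tnnt1, Tnnt2, Tnnc1 and Tpm1 were higher (11.4% of all genes) and Tpm3 and Tpm4 lower (13.5%). Under ribosomal protein scaling none of these 4 rises was called, and Tnnc1 (-0.0029) and Tpm1 (-0.055) turned; Tpm1 was also not called with library size alone (adjusted p = 0.0516), and the deposited ratios called 1 of the 4. Tpm3 at 4 h was at -0.32 (adjusted p = 0.00801) and lost its call without replicate 2 of KO at 0 h (-0.27, adjusted p = 0.0654) or replicate 1 of KO at 4 h (-0.26, adjusted p = 0.0668).

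**Figure D4:**
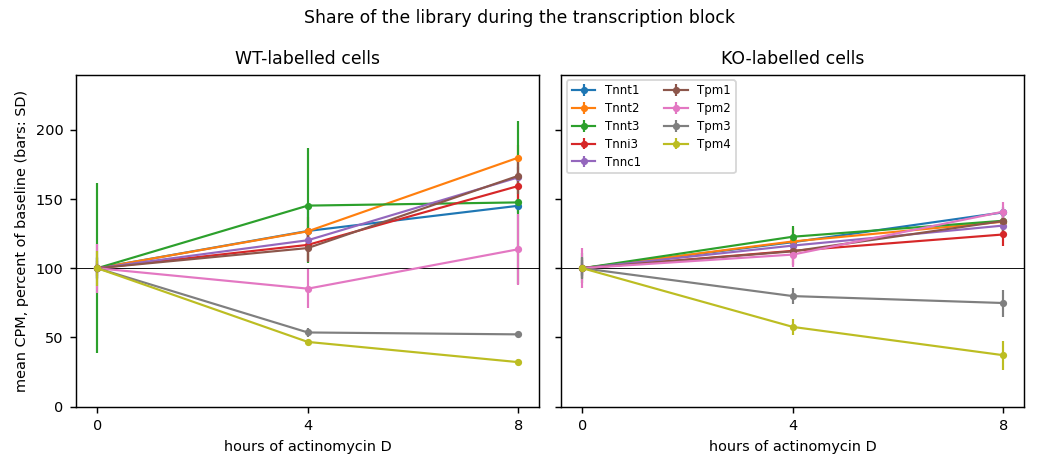
Mean TMM-scaled CPM as percent of the mean at 0 h (vertical axis) against hours of actinomycin D for the 9 tested genes, WT left and KO right; bars are SD over 3 libraries (2 for WT at 4 h). Tpm4 and Tpm3 fell in both genotypes under each scaling; the rises of the other genes were lost or turned in most cases under ribosomal protein scaling.

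The interaction, the change from 0 h in KO minus that in WT, asks directly whether the courses differed. At 8 h 4 of the 9 members passed, against 5.21% of all tested genes: 3 were lower (3.33% of all genes were) and 1 was higher (1.88%). Tnnt2 was at -0.43 (SE 0.07, adjusted p = 0.000311), Tnnc1 at -0.34 (SE 0.06, adjusted p = 0.000315) and Tpm1 at -0.31 (SE 0.07, adjusted p = 0.00161), so the shares of the abundant cardiac genes rose less in KO. Tnni3 had a like value, -0.36 (SE 0.11, adjusted p = 0.0808), and passed with DESeq2 (adjusted p = 0.0369) and with the replicate block (adjusted p = 0.000773). None of the 4 was called under ribosomal protein scaling, where Tnnt2 was at -0.15 (adjusted p = 0.238), Tnnc1 at -0.06 (0.611) and Tpm1 at -0.04 (0.799), and Tpm1 was not called with library size alone (-0.21, adjusted p = 0.102). With no filter on low counts Tnnt2 was not called (-0.37, adjusted p = 0.0892), and the deposited ratios called none of them. These scalings shifted the median over all genes by 0.28 (ribosomal protein) and 0.11 (library size).

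Tpm3 went the other way, at 0.52 (SE 0.15, adjusted p = 0.0236), having lost less of its share in KO. The value stayed between 0.43 and 0.62 when any of the 12 libraries was left out. The call was lost with DESeq2 (0.52, adjusted p = 0.0545) and without replicate 1 of KO at 0 h (0.47, adjusted p = 0.0613), replicate 1 of KO at 8 h (0.44, adjusted p = 0.105), replicate 2 of KO at 8 h (0.50, adjusted p = 0.0616) or replicate 3 of WT at 0 h (0.43, adjusted p = 0.0974). Leukocyte marker sums fell from 90.7 to 105 CPM to 17.4 to 21.2 CPM in WT and from 37.4 to 42.4 CPM to 24.7 to 29.4 CPM in KO between 0 and 8 h. The part of such cells in the Tpm3 difference was not tested.

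The courses of the skeletal troponins T were not shown to differ between genotypes. The 8 h interaction of Tnnt1 was -0.05 (95% interval -0.24 to 0.14, adjusted p = 0.846) and that of Tnnt3 -0.10 (-1.04 to 0.85, adjusted p = 0.948). The value of Tnnt1 turned to 0.06 (library size alone) and 0.23 (ribosomal protein scaling), neither called. The second of these lies outside the interval, which covers the spread between libraries under TMM and not the choice of scaling. Tpm2 was at 0.30 (-0.11 to 0.71, adjusted p = 0.478), called with ribosomal protein scaling (0.58, adjusted p = 0.0396), and Tpm4 at 0.21 (-0.15 to 0.56, adjusted p = 0.593). At 4 h none of the 9 members passed (edgeR quasi-likelihood test; 0.348% of all genes did). Tpm3 was the 1 member with an unadjusted p under 0.05 there (0.58, SE 0.16, adjusted p = 0.102); it passed with library size alone (0.73, adjusted p = 0.00793), with no filter on low counts (0.65, adjusted p = 0.0188) and in a fit of the compared groups only (0.64, adjusted p = 0.0284), and DESeq2 called none.

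Over the 17 libraries the members fell into 2 sets of like profile. Pearson correlations of log2 CPM were 0.97 to 0.99 among Tnnt2, Tnni3, Tnnc1 and Tpm1 and 0.92 to 0.98 among Tnnt1, Tnnt3 and Tpm2, and between the sets 0.65 to 0.81. Tpm3 and Tpm4 correlated at 0.63 with each other. Tpm3 was as close to the second set, at 0.64 with Tnnt3, 0.57 with Tpm2 and 0.55 with Tnnt1. With the first set it was at -0.03 to 0.08. These points share libraries and the steps between groups, so the values describe the pattern only. The genes whose profile was most like that of Tnnt1, among 6683 compared, were Dstn (an actin-depolymerising factor, r = 0.992), Ckb (brain-type creatine kinase, 0.990), Slc25a5 (an adenine nucleotide carrier, 0.990), Dmd (dystrophin, 0.988) and Bcam (a laminin-binding adhesion molecule, 0.987). Their baseline log2 differences were 1.38, 1.14, 0.60, 1.15 and 0.79, all smaller than the 2.16 of Tnnt1. Those most like Tpm3 were Coro1b (an actin-binding coronin, 0.947), Nav2 (0.943), Etl4 (0.934), Spred2 (0.931) and Adamts7 (0.925), which each had a lower share at 8 h than at 0 h by log2 -0.46 to -0.83 in WT and -0.19 to -0.41 in KO.

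Genes of troponin T and troponin I lie in pairs on the genome. Tnnt1 and Tnni3 lie 1922 bases apart on the same strand of chromosome 7, with baseline log2 differences of 2.16 and 0.51. Tnnt3 lies 54425 bases from Tnni2, the fast skeletal troponin I, which was singled out after its values were seen. Tnni2 was at 3.55, 3.06 and 3.80 CPM in KO and at 0.974, 0.743 and 0.670 CPM in WT at 0 h, a log2 difference of 2.13 (SE 0.21, adjusted p = 8.05e-13). On chromosome 1, Tnni1 lies 25364 bases from the abundant Tnnt2 and was almost unread.

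Promoters were read from RefSeq (GRCm38.p6; 300 bases each, most of them upstream of the start), which gave 9 of the 10 members, Tnnt3 being the other. Motifs were sought on both strands: the MCAT element CATTCC, which TEAD factors bind, the GATA factor element AGATAA, the TATA box in the form TATAAA, and the MEF2 box. Of 32851 promoters of this length, 14.66% held the MCAT letters, 11.18% GATA, 13.62% TATA and 3.69% MEF2; the E box CANNTG and the outer letters of the CArG box were in 72.31% and 73.31% and are not marked. Matches could overlap, and capitals mark them on either strand. Shown are the 3 abundant cardiac genes with an MCAT match and Tnnt1, which has none. They were picked by the match and do not contrast the 2 sets of like profile. Tnni3, of the abundant set, has no MCAT match.
Tnnt2, chr1:135836084-135836383, plus strand: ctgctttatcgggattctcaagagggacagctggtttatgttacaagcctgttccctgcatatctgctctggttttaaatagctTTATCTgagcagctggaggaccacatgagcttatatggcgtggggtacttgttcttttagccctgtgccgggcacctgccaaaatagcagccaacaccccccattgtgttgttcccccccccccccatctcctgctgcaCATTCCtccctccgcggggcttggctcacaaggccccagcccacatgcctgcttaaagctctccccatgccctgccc
Tnnc1, chr14:31208062-31208361, plus strand: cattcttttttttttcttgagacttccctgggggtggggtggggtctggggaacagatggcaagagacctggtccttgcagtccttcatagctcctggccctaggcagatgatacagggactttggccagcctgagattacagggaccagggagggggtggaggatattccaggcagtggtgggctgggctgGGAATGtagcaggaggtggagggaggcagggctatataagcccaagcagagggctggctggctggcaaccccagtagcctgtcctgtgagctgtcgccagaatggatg
Tpm1, chr9:67049164-67049463, minus strand: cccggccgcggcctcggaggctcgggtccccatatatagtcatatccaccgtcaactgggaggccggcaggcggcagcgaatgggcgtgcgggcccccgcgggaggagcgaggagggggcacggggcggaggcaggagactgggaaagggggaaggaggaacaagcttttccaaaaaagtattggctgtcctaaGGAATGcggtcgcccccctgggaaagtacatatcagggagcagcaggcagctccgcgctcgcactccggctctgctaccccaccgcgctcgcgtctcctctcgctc
Tnnt1, chr7:4515926-4516225, minus strand: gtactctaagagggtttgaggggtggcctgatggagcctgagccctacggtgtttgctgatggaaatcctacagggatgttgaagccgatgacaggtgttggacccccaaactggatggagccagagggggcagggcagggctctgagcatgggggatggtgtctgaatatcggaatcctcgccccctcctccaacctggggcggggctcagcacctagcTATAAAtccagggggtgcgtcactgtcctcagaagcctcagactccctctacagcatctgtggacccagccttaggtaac
Each of Tnnt2, Tnnc1 and Tpm1 had 1 MCAT match, Tnnt2 also 1 GATA match, and Tnnt1 1 TATA match. Tnni3, Tpm2, Tpm4 and both Tnni1 entries had none of the 4 motifs, and of the further starts listed, 1 of 2 for Tpm3 had a GATA match and the other of Tnnt2 had none. No match says only that these letters are not in this window.

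A list of other thin filament genes had a lower median difference than the members. The list itself holds 2 troponins that are not members, Tnni2 and the untested Tnnc2. Of 24 genes that bind or build the thin filament, 22 were tested; 12 were higher and 2 lower in KO at 0 h (18.8% and 17.9% of all genes), with a median log2 difference of 0.22 beside 0.63 for the 9 members. Acta1, skeletal alpha-actin, was higher by 0.68 (SE 0.04, adjusted p = 6.56e-21) and Capzb, a barbed-end capping subunit, by 0.43 (SE 0.04). Neb, the thin-filament ruler nebulin, was at -1.02 (SE 0.13, adjusted p = 2.58e-09) and the actin-binding Xirp2 at -0.31 (SE 0.04). During the block in WT, 16 of the 22 had a higher share at 8 h (25.0% of all genes) and 2 a lower one (26.8%), Tmod3 (-1.01, SE 0.10), a tropomodulin of non-muscle cells as well, and Xirp1 (-0.77, SE 0.05); Tmod4, at 0.67, and Acta1, at 0.67, rose most among those of at least 3 mean log2 CPM. At the 8 h interaction 5 were lower and none higher (3.33% and 1.88% of all genes), among them the leiomodins Lmod2 (-0.32, adjusted p = 0.000535) and Lmod3 (-0.27, adjusted p = 0.0319).

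**Figure D5:**
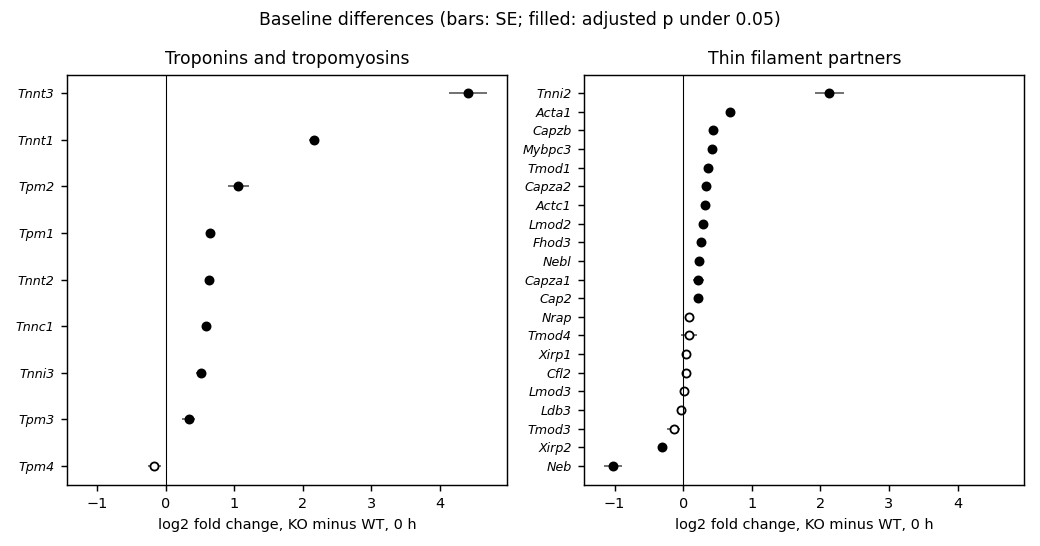
Log2 fold change, KO minus WT, at 0 h (horizontal axes) with SE bars for the 9 tested troponins and tropomyosins and for the tested thin filament partners with a mean above 1 CPM; filled points have an adjusted p under 0.05. Tnni2 at 2.13 lay near Tnnt1 at 2.16, and Neb at -1.02 was the lowest point; the call of Tpm3 is lost under other scalings.

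Lists of adult cardiac, fetal or slow, and fast skeletal sarcomere genes were read in the same way. They share genes with the thin filament list, so their counts are not separate from those above. Actc1, Mybpc3, Ldb3, Nebl, Lmod2 and Tmod1 are also on the adult cardiac list. Acta1 is also on the fetal and slow list, and Tnni2, Tnnc2 and Tmod4 are on the fast skeletal list. Of 16 adult cardiac sarcomere genes all were tested, and 14 were higher and none lower in KO at 0 h (18.8% and 17.9% of all genes; median 0.33), led by Actn2, the Z-disc actinin (0.71, SE 0.04, adjusted p = 1.88e-23), and Myl3, a ventricular light chain (0.66, SE 0.04). Of 12 genes listed as fetal and slow muscle 11 were tested. Of these 7 were higher and 2 lower (again beside 18.8% and 17.9%, median 0.24). Acta1 and Smpx (0.53, SE 0.05), a small muscle protein, were highest among those of at least 3 mean log2 CPM. Of 15 fast skeletal genes only 8 were tested; 4 were higher and none lower (beside the same shares; median 0.44), among them Myl1, a fast light chain (1.83, SE 0.08, adjusted p = 7.61e-26), and Casq1, the skeletal calsequestrin (0.99, SE 0.10).

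These lists also had their course in the block. In WT at 8 h, 14 of the 16 adult cardiac genes had a higher share (25.0% of all genes). None had a lower one (26.8%). They were led by Myl3 (0.80, SE 0.04) and Myl2 (0.76, SE 0.07), both ventricular light chains. Of the 11 tested genes on the fetal and slow list, 6 were higher, led by Myoz2 (0.75, SE 0.05). On that list 1, Actn4 (-0.41, SE 0.07), was lower, beside the same shares of all genes. The list is mixed: Myoz2 and Csrp3 were abundant in these adult cells, at a mean log2 CPM of 9.82 and 9.99. Its counts do not describe fetal genes alone. Of the fast skeletal genes 5 of 8 were higher (25.0% of all genes), among them Mybpc2 (0.57, SE 0.07). At the 8 h interaction (edgeR quasi-likelihood test) 5 adult cardiac genes were lower, with Myl2 at -0.36 (adjusted p = 0.0365) and Myl3 at -0.35 (adjusted p = 6.5e-05). On the fetal and slow list 4 were lower, with Myoz2 at -0.40 (adjusted p = 0.000699) and Csrp3 at -0.29 (adjusted p = 0.00155). None was higher in either list (3.33% of all genes were lower and 1.88% higher). No fast skeletal gene passed. Of 17 tested kinases and other enzymes that act on the thin filament, 5 were higher and 1 lower in KO at 0 h (18.8% and 17.9% of all genes; median 0.08): Prkg1, a cyclic GMP-dependent kinase, at 0.62 (SE 0.07) and Prkca at 0.39 (SE 0.07) were the highest, and Ppp1r12b, a myosin phosphatase subunit, was at -0.22 (SE 0.04). In WT at 8 h 9 of them were higher (25.0% of all genes), led by Ppp1cb at 0.43 and Prkaca at 0.42, and 2 were lower (26.8%), Prkce at -0.24 and Ppp1r12b at -0.12, and none passed the interaction.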

How the data were processed

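The authors deposited raw counts per gene for each of the 17 libraries, and ratios of each library to the baseline of its genotype for 20173 genes. Per the submitters' processing notes STAR, featureCounts, DESeq2 and limma were used with the builds GRCm38 and mm10; the sources used here give no version and no strand setting. Depth was 17058419 to 17968827 counts per library. The count table had 1 row with no gene name (0.0113% of counts), which was left out.

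Counts were tested with edgeR 4.0.16 in R 4.3.3 (filterByExpr, TMM scaling, 1 robust quasi-likelihood fit of 6 groups, Benjamini-Hochberg over 13229 genes within each comparison, calls at an adjusted p under 0.05), and the steps were tested on simulated data. Comparisons were KO against WT at each time, each later time against 0 h, and the interaction at 4 and 8 h. Gene positions, lengths and 3′ UTRs came from GENCODE M21, which held 55226 of the gene identifiers. DESeq2 1.42.0, other scalings, filters, a replicate block, left-out libraries and the deposited ratios (limma 3.58.1 on log2(ratio + 0.01)) were alternatives.

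The members and gene lists were chosen with earlier results of these data known. All members were described in every comparison; of each list the 2 highest and 2 lowest called genes with a mean log2 CPM of at least 3 were named for the baseline comparison of genotypes, the 8 h change in WT and the 8 h interaction; the 5 genes most like Tnnt1 and like Tpm3, the member with the largest 8 h interaction, were named by Pearson r. Marker lists were summed. The 3′ UTRs of 2 members are not reported here. Within groups, 16 pairs of libraries differed by more than counting noise, so none was a copy.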

Additional observations from a re-analysis of the deposited data

Results flagged for a closer look

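Of the members, 4 had a change from 0 to 8 h that differed between KO and WT by the test of the interaction (edgeR quasi-likelihood test). Tnnt2 was at -0.43 (adjusted p = 0.000311), Tnnc1 at -0.34 (adjusted p = 0.000315) and Tpm1 at -0.31 (adjusted p = 0.00161), each having gained less of the library in KO. Tpm3 was at 0.52 (adjusted p = 0.0236), having lost less of it in KO. None of Tnnt2, Tnnc1 and Tpm1 was called under ribosomal protein scaling (adjusted p = 0.238, 0.611 and 0.799) or with the deposited ratios (0.101, 0.228 and 0.116). Tnnt2 was also not called with no filter on low counts (0.0892), Tpm1 with library size alone (0.102), or Tpm3 with DESeq2 (0.0545), the deposited ratios (0.111) or any of 4 single libraries left out (0.0613 to 0.105). No cause was tested.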

How the results depend on the processing

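RLE size factors, leaving mitochondrial genes and Esr1 out before TMM, and a filter at a CPM of 1 in 3 libraries moved no call and no direction of a member. With ribosomal protein scaling 8118 genes were called for KO against WT at 0 h (4850 with TMM), 7785 at 4 h (4225), 11343 for WT at 8 h (6859), 28 for the 4 h interaction (46) and 3032 for the 8 h interaction (689). Under it members called higher were 0 for WT at 4 h (44 of all 13229 genes) and 1 for WT at 8 h (50 genes). They were 0 for KO at 4 h (20 genes) and 0 for KO at 8 h (28 genes). The 8 h interaction had 2 members higher and 0 lower, beside 2988 and 44 of all genes. In KO at 0 h 1 member, Tpm4, was lower under ribosomal protein scaling, beside 7644 genes. Values that turned under it were Tpm4 in KO against WT (-0.23 at 4 h and -0.013 at 8 h), Tnnt1 (-0.13) and Tpm2 (-0.48) in WT at 8 h, Tnni3 (-0.050), Tnnc1 (-0.0029) and Tpm1 (-0.055) in KO at 4 h, Tnni3 (-0.074) and Tnnc1 (-0.0028) in KO at 8 h, and the 8 h interaction of Tnnt1 (0.23). With library size alone 1 member (Tpm4) was lower in KO at 0 h (5557 of all 13229 genes). By that scaling 1 member was higher for WT at 4 h (119 genes) and 1 (Tpm3) for the 4 h interaction (98 genes). That interaction had 100 genes called in all. Turned values there were Tpm4 in KO against WT at 8 h (-0.062), Tpm2 in WT at 8 h (-0.018) and the 8 h interaction of Tnnt1 (0.057).

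With no filter on low counts 1 member (Tpm3) was higher at the 4 h interaction (57 of 29043 genes). It was also higher in a fit of only the groups compared (48 of 13100 genes). The 8 h interaction of Tnnt1 was 0.0083 with no filter. DESeq2 called 24 genes for the 4 h interaction and 0 members higher at the 8 h interaction (147 of 13229 genes). The deposited ratios called 0 members higher for WT at 4 h, where 106 of 13222 genes were higher (1583 called in all, 3776 with counts). They called 1 member higher for KO at 4 h (107 genes higher, 1943 called in all, 3291 with counts). For KO at 8 h they called 1 member higher (591 genes higher). They called 2 genes for the 4 h interaction, and 0 members either way for the 8 h interaction (129 genes in all). With them Tpm1 in WT at 4 h was at -0.0033, Tpm2 in WT at 8 h at -0.047 and the 8 h interaction of Tnnt1 at 0.074. The share of Tnnt1 and Tnnt3 in troponin T at 0 h was 3.91% in KO and 1.27% in WT by merged exons, 3.40% and 1.13% by longest transcript, 1.11% and 0.363% by reads, and 1.30% and 0.424% by principal transcript, a length chosen after seeing the data. The causes were not tested.

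With 1 library left out at a time, Tpm4 in KO against WT at 8 h ran from -0.12 to 0.26. Members called higher ran from 2 to 5 for WT at 4 h and from 0 to 1 for the 8 h interaction, and members called lower from 1 to 2 for KO at 4 h. Genes called in all ran from 2349 to 3341 for WT at 4 h, from 26 to 53 for the 4 h interaction and from 422 to 925 for the 8 h interaction. An arm left with 1 library took its spread from the other groups.

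The labels do not say whether equal replicate numbers mark paired samples, and the check made here cannot decide it. Over 40 pairs of equal number, within and between genotypes, the deviations from group means correlated at -0.19 to 0.17. Of the 17 libraries, 4 correlated best with a library of their own number. No range for unequal numbers was taken, and the group means rest on 2 to 3 libraries. The replicate block changed 4 calls of members, all of Tnni3, which became called: KO against WT at 8 h (0.15, adjusted p = 0.0155), WT at 4 h (0.26, adjusted p = 0.000307), KO at 4 h (0.17, adjusted p = 0.00755) and the 8 h interaction (-0.36, adjusted p = 0.000773). Tnnt3 in WT and Tnni1 in both genotypes are limited by depth, at 2 to 7 and 0 to 9 reads per library.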
